A study of Mus musculus with 12 samples.

Results

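The unplucked hair follicle stem cells (HFSCs) of aged mice were compared with those of young mice, 1 microarray a side, so every value is a description of these arrays without a test. Both came from wild-type C57BL/6 mice for which the labels name no plucking or tamoxifen, the young ones 8 weeks old and the aged ones at least 22 months. Unplucked HFSCs of 12-week-old wild-type C57BL/6 mice, injected with tamoxifen (2 mg a mouse for 5 days), served as a second young reference and are called the control. The labels do not say how many mice gave each sample. A gene entered the comparison when the probe that represented it was well above background on the aged or the young array, which held for 23955 of the 34763 gene names on the array. Of these, 19941 were well above background on both arrays, 2880 on the aged array alone and 1134 on the young array alone. The series measured 12 samples with 1 array each, and the others were plucked HFSCs, total epidermis and interfollicular epidermis (IFE), with Col17a1 knockout HFSCs. Its design concerns what sets young, aged and Col17a1-deficient stem cells apart.

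HFSCs lie in the bulge of the hair follicle and rest for long periods between hair cycles. They express basal keratins and the surface protein CD34, and are held to the basement membrane by hemidesmosomes, in which collagen XVII (Col17a1) and the integrin of alpha6 and beta4 link keratin filaments to laminin. Rest is maintained by BMP and FGF signals, and Wnt and hedgehog signals accompany the start of hair growth.

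Levels are given as log2 of the processed spot signal minus the 75th percentile of the array, so that 0 is the signal of a probe at that percentile and 1 unit is a 2-fold difference. A signal not well above background is only an upper limit. Where it lay under the lowest level well above background on that array it was raised to that level, which was -3.68 for young, -4.10 for control and -3.74 for aged, and differences against it are written as "at least". Spots well above background made up 56.1% of the young, 60.0% of the control and 61.4% of the aged array. The young and aged arrays lay on 1 slide in different rows, and row and age cannot be told apart. The control array lay on another slide with another scan time, and its mice also differed in age and tamoxifen. Less RNA per cell and fewer cells of a type cannot be told apart in these sorted populations.

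The aged array was at least 2-fold above the young array for 3513 genes (14.7%) and at least 2-fold below it for 2408 (10.1%), 24.7% in all. Among the 19941 genes well above background on both arrays, 2154 (10.8%) were higher and 1848 (9.27%) lower. The same count between the control and the young array, both of them young wild-type HFSCs, gave 3884 higher in control (15.9%) and 4370 lower (17.9%), 33.8% in all. The references were thus further from each other than the aged array was from the young one. Between the aged and the control array, 4888 genes (19.4%) were higher and 3371 (13.4%) lower in aged cells, 32.8% in all. These pairings share arrays and are shown side by side. Over the 18826 genes well above background on all 3 arrays, the standard deviation of the log2 difference across genes was 0.83 for aged minus young, 1.09 for aged minus control and 1.13 for control minus young. The median correlation of the control array with the other 11 arrays, 0.886, was the lowest of the 12, against 0.925 for young and 0.926 for aged.

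The aged array lay at least 2-fold outside both references for a smaller set. There were 1864 above both (7.78%) and 712 below both (2.97%), or 10.8% of the genes in all. They differed in brightness. Of the 1864 above both, 681 were well above background on neither reference, and 207 were well above background on the aged HFSC array alone of the 12. Of the 712 below both, 604 were well above background on all 3 arrays and 108 not on the aged array. At mean levels from -2 to 0, 376 genes were above both and 239 below both, whereas at levels from 0 to 2 the counts were 81 and 229, and from 2 to 4 they were 20 and 78. Bright genes were also slightly lower in aged cells as a whole. Over the 4933 genes with a mean level of at least 2, the median was -0.20 for aged minus young, -0.27 for aged minus control and 0.14 for control minus young.

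**Figure D1:**
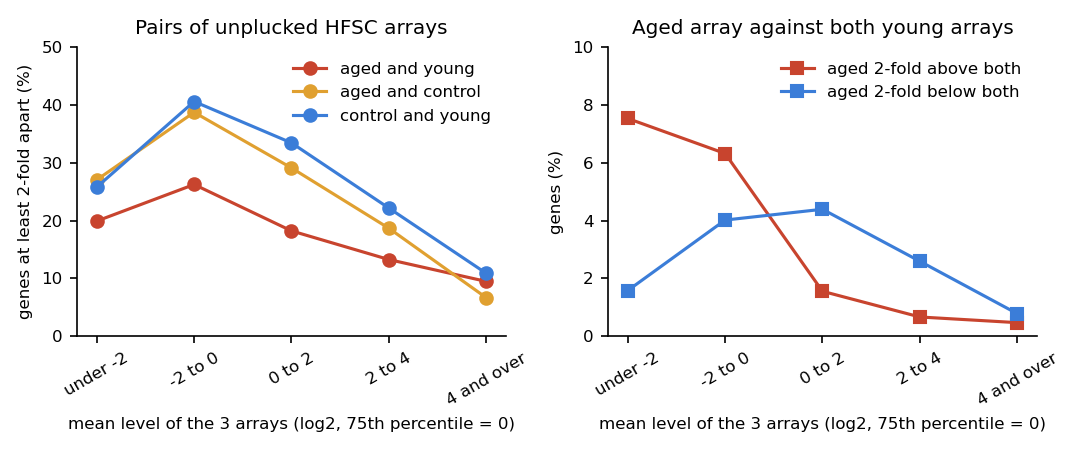
Share of genes (%) at least 2-fold apart between pairs of unplucked HFSC arrays (left) and with the aged array 2-fold outside both references (right), by the mean log2 level over the 3 arrays, for genes well above background on all 3. The control and young arrays were 2-fold apart for more genes than the aged and young arrays in every bin, and genes below both references outnumbered those above both from a level of 0 upwards.

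The positive markers of the sort were detected on all 3 arrays, while the negative marker Ly6a was also detected. Cd34, the surface protein used to sort bulge cells (probe at chr1:196787392-196787451 on mm9), had a level of 6.46 in young, 6.69 in control and 5.62 in aged cells. It was lower in aged cells by 0.84 than in young and by 1.06 than in control cells, and its second probe gave -1.04 and -1.11. Itga6, the alpha6 integrin of the gate, stood at 4.54, 4.28 and 4.48, within the range of the references. Ly6a, which encodes the SCA1 protein absent from sorted HFSCs, was at 0.30 in young, -3.15 in control and -1.76 in aged cells, so that the aged level lay between the references. The young sample had the highest Ly6a RNA of the 3, while the sort acts on the surface protein. The purity of the sort was not tested. Krt15, a basal keratin of the bulge, was at 6.81, 6.97 and 6.18. Cd34 and Krt15 were thus lower in aged than in both young samples by amounts below or near 2-fold.

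Of 28 bulge genes, 27 were measured. Foxc1 was 2-fold higher and Fgf18, Krt19, Wif1, Foxi3 and Tnc were 2-fold lower in aged than in young cells. Of all genes, 14.7% were higher and 10.1% lower. The median over the 26 members well above background on both arrays was -0.20, close to that of bright genes in general, and -0.01 under both quantile scalings. Against control it was -0.47 over 24 members, against -0.27 for genes with a mean level of at least 2. Of the 24, 14 were below both references by any size, against 47.7% of such bright genes. Only Foxc1 and Fgf18 were outside both references, against 10.8% of all genes. Foxc1, a transcription factor that supports stem cell rest, was at 1.69 in young, 1.14 in control and 2.77 in aged cells. Fgf18, a growth factor of the bulge that prolongs rest, was at 2.88, 2.48 and 1.26 (probe at chr11:33017440-33017499), and its second probe gave -1.61 against young and -1.25 against control. In plucked HFSCs the difference between aged and young was the opposite for both genes, 3.15 for Fgf18 and -0.83 for Foxc1. Lhx2, a bulge transcription factor, was at 6.43, 6.45 and 5.95, while Sox9 was at 4.91, 5.46 and 4.73, both lowest in aged cells. Lgr5 at 4.09, 5.43 and 4.60 and Tbx1 at 6.15, 6.58 and 6.19 lay between the references. Tnc, a matrix glycoprotein, was at 0.31 in young and -1.82 in aged cells but not well above background in control, so its lower level held against 1 reference only.

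Hemidesmosome genes were lower in aged cells by small amounts. None of the 13 was 2-fold apart, yet 12 were below young and 10 below both references. The share below both was 32.3% over all genes well above background on the 3 arrays, 47.7% over those with a mean level of at least 2 and 51.9% over those of at least 4. The median was -0.51 against young and -0.52 against control, and lay between -0.26 and -0.55 under the other scalings of the young comparison. Col17a1 itself (probe at chr19:47720894-47720953) was at 7.39 in young, 7.31 in control and 6.88 in aged cells, a difference of -0.51 and -0.44. The basal keratins were also lowest in aged cells, with Krt5 at 8.83, 8.73 and 8.20 and Krt14 at 8.36, 8.59 and 7.81. Among the laminin-332 chains, the ligand of the integrin, Lama3 was at 4.68, 4.74 and 4.18 and Lamb3 at 5.15, 4.82 and 4.44. Itgb4, the beta4 partner of Itga6, was at 4.55, 4.64 and 4.03. Plec, the plectin that binds keratin filaments, was at 3.41, 3.33 and 3.47, highest in aged cells. Cd151, a tetraspanin of the complex, was at 2.96, 4.24 and 2.35, but its second probe gave 0.34 against control. In plucked HFSCs the median of the 13 was 0.38 in the other direction, with Col17a1 0.53 higher in aged cells. The medians in IFE and total epidermis were -0.01 and 0.10.

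**Figure D2:**
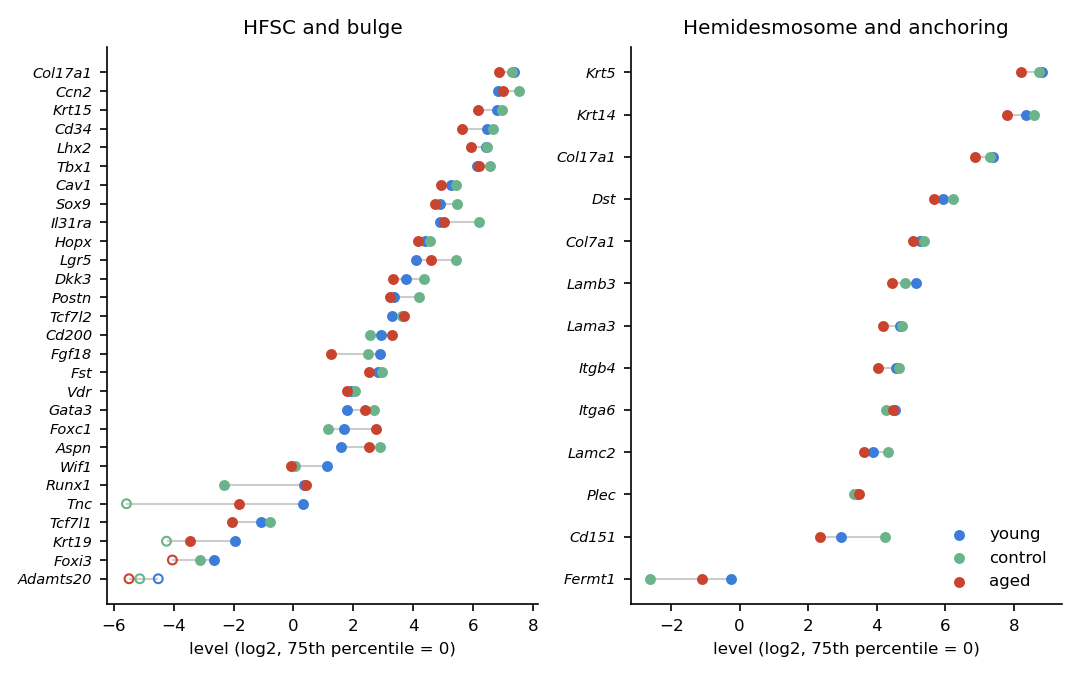
Log2 level (0 is the array's 75th percentile) of each bulge gene (left) and hemidesmosome gene (right) on the young, control and aged unplucked HFSC arrays; open circles are not well above background. The aged point is the lowest of the 3 for 10 of 13 hemidesmosome genes, and Fgf18 and Foxc1 stand 2-fold outside the references.

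Genes of the basement membrane and its neighbouring matrix were spread more widely. Of 31 genes, 26 were measured. In aged against young cells 8 were 2-fold lower and 1 was higher, against 10.1% and 14.7% of all genes. The median was -0.71 against young but 0.28 against control, and control minus young was itself -0.69. Lamb1, Lamb2 and Ltbp1 were below both references, against 2.97% of all genes. Lamb1, the beta1 laminin chain, was at -0.41 in young, 0.92 in control and -3.05 in aged cells, 6.20-fold and 15.6-fold below them (probe at chr12:32014411-32014470). Lamb2, the beta2 chain, was at 0.42, 2.28 and -1.79. Both chains were far lower in the aged sample than in either reference, and for each the references themselves differed by more than 2-fold. Ltbp1, which stores latent TGF-beta in the matrix, was at 4.29, 4.74 and 2.11, but its second probe gave -0.44 and 0.31. Lama2, a laminin chain of muscle and other tissues, was above both, at -2.01, -2.21 and -0.67. Npnt, the bulge ligand of an integrin of the arrector muscle, was at 4.40 in young, 2.02 in control and 1.21 in aged cells, so the control lay nearer the aged sample. Fn1 was similar, at 0.24, -1.80 and -1.44. Of 15 fibrillar and other dermal collagens, 13 were measured. Of these, 4 were 2-fold lower and 1 was higher than in young cells, against 10.1% and 14.7% of all genes. None was outside both references, against 10.8% of all genes.

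Growth factor genes lay outside the references on both sides. In the FGF, EGF and IGF list 26 members were measured. Of these, 3 were 2-fold higher and 4 lower than in young cells, against 14.7% and 10.1% of all genes. Above both references were 2 and below both 4, against 7.78% and 2.97% of all genes. Fgf1, an acidic fibroblast growth factor, was at 5.68 in young, 5.86 in control and 4.65 in aged cells, and its second probe gave -1.03 and -1.47. Igfbp3, which binds insulin-like growth factors, was at -0.86, -0.78 and -2.54, and Erbb2, a receptor of the EGF family, at -0.08, 0.63 and -1.70. All were lowest in aged cells. Ereg, the EGF-family ligand epiregulin, was at -1.70 in aged cells and -3.55 in control, and not well above background in young cells. Erbb4, another receptor of that family, was at 0.21 in aged cells and on no other array of the 12 well above background (probe at chr1:68078805-68078864), at least 14.8-fold above young and 19.8-fold above control. With the mean of its probes Erbb4 differed from young by 2.35, and under normexp with quantile scaling by 1.97. In plucked cells Fgf1 differed by 0.63 and Igfbp3 by -0.93.

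Of 29 BMP and TGF-beta genes well above background on both arrays, 2 were 2-fold higher and none was lower than in young cells. Of all genes well above background on both arrays, 10.8% were higher and 9.27% lower. None of the 29 was outside both references, against 10.8% of all measured genes. Gdf10, a TGF-beta family ligand, was at -2.95 in young, -2.10 in control and -1.64 in aged cells, and Tgfbr3, a co-receptor, at 0.55, 2.07 and 1.75. Several members had like levels in young and aged cells and another in control. The ligand Bmp4 was at -1.74 in young and -1.85 in aged but 2.35 in control cells, the target Id1 at 2.34, 2.33 and 4.30 in the same order, and the receptor Tgfbr2 at 0.63, 0.88 and 3.23. Against the control alone these would have counted as 2-fold lower in aged cells.

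Of 28 measured Wnt ligands and receptors, 2 were 2-fold higher and 3 lower than in young cells, and of 17 antagonists and targets 2 and 4, against 14.7% and 10.1% of all genes. Of these, 1 ligand was above and 2 targets were below both references, against 7.78% and 2.97% of all genes. Wnt10b, a ligand of the hair germ, was at -2.46 in young and -1.39 in aged cells and not well above background in control. Lef1, the Wnt transcription factor of hair growth, was at -0.99 in young and -2.48 in control and not well above background in aged cells, lower by at least 2.75 and 1.26. Tcf7, a relative of Lef1, was at 1.75, 0.41 and -1.85, but its second probe ran the other way, 1.24 and 2.91, so no level can be given to the gene. Dkk3 and Wif1, secreted antagonists, were at 3.78, 4.36 and 3.34 and at 1.11, 0.04 and -0.07.

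Among 23 measured hedgehog and Notch genes, 6 were higher and 4 lower than in young cells, against 14.7% and 10.1% of all genes. Above both references were 3 and below both 2, against 7.78% and 2.97% of all genes. Ihh, a hedgehog ligand of the sebaceous gland, was at -3.04 in young, -2.76 in control and -0.91 in aged cells. The Notch ligand Dll1 was at 0.12, 0.58 and -1.21, and the Notch target Hey1 at -0.53, -0.18 and -1.65, both lowest in aged cells. Notch3, a receptor of differentiating layers, was at -2.91, -3.77 and -1.74. Hey2, a relative of Hey1, was at -1.23 in aged cells and well above background on no other array of the 12. Ligand, receptor and target genes of the pathway therefore did not share a direction.

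Cell cycle genes lay on both sides. Among 29 measured, 4 were higher and 4 lower than in young cells, against 14.7% and 10.1% of all genes. Plk1, a mitotic kinase, was at -1.41 in young, -1.38 in control and -0.10 in aged cells, and Foxm1, a mitotic transcription factor, at -1.87 in aged, -3.69 in control and not well above background in young cells. Gins2, of the replication complex, was at 1.83, 1.16 and -1.09. Birc5, the mitotic protein survivin, was at 1.37, 2.62 and -0.22, but its second probe gave 0.18 against young. Among inhibitors and senescence genes, none of 16 was higher and 3 were lower than in young cells, against 14.7% and 10.1% of all genes. Igfbp3 and Glb1, the lysosomal galactosidase, were below both references, against 2.97% of all genes. Glb1 was at -0.76, 0.68 and -2.46. Among 28 p53 and DNA damage genes none was higher and 4 were lower against young, beside 14.7% and 10.1% of all genes.

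Immediate early genes respond within minutes to growth factors or to cell dissociation. Of 22 measured, 7 were 2-fold higher in aged than in young cells and none lower, against 14.7% and 10.1% of all genes. By any size 15 were higher and 7 lower, with a median of 0.48. The control array was higher still, by a median of 0.70 over young, so that the median against control was -0.14. Fos and Junb were the 2 members above both references, against 7.78% of all genes. Fos, a subunit of the AP-1 factor, was at -0.39 in young, 0.26 in control and 1.79 in aged cells (probe at chr12:86817900-86817959). Junb, its partner, was at -2.48, -3.67 and -1.11. Both were also higher in aged cells in the other pairs, by 0.97 and 1.14 in plucked HFSCs, 0.83 and 0.30 in IFE and 1.03 and 1.43 in total epidermis. Egr1, at 4.55, 6.20 and 6.16, and Maff, at -0.36, 0.89 and 0.71, had like levels in control and aged cells. The part of cell handling in these values was not tested.

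Il34 and Il33 were the cytokine genes below both references, against 2.97% of all genes. Il34, a ligand of the CSF1 receptor that Langerhans cells depend on, was at 2.40 in young, 2.09 in control and 0.50 in aged cells, and Il33, an alarmin, at -1.17, -1.32 and -2.73. Both were lower than in either reference by more than 2-fold, whereas in plucked HFSCs Il34 was 1.60 and Il33 0.63 higher in aged cells. Among 24 cytokine genes, 1 was higher and 3 were lower than in young cells, against 14.7% and 10.1% of all genes. The interferon-induced Ifit2 was at -3.17 in young and -0.93 in aged cells and not well above background in control. It was the only member of 21 interferon genes outside both references, against 10.8% of all genes. Of the 21, 2 were higher and 4 lower than in young cells, against 14.7% and 10.1%. Of the proteases, Plau, the urokinase plasminogen activator, was at 1.66, 1.68 and 0.38. Elane, the neutrophil elastase that can cleave COL17A1, was not well above background in young cells and at -3.38 in control and -2.77 in aged cells, at least 0.92 above young and 0.61 above control, all near the limit of detection.

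Most members of the housekeeping metabolism lists were lower in aged than in young cells, in the main by less than 2-fold. Of 30 mitochondrial respiratory chain subunits, 29 were below young and 21 below both references, and 3 were 2-fold lower, against 10.1% of all genes. The median was -0.66 against young, from -0.45 to -0.69 under other scalings, and -0.28 against control, which was itself below young. Ndufb8, of complex I, was at 4.07 in young, 3.83 in control and 2.88 in aged cells, and Sdhd, of complex II, at 3.04, 2.70 and 1.97. For Ndufa1 the control stood with the aged sample, at 4.95, 3.45 and 3.54. Of 30 cytosolic ribosomal proteins, 28 were below young and 21 below both, with a median of -0.37 and -0.19. Rps2 was at 5.10, 4.17 and 4.01. Heat shock and unfolded protein genes had a median of -0.49 and -0.36, with 17 of 18 below young and 13 below both. The median levels of these lists were 3.37, 5.90 and 3.19. The share of all genes below both references was 47.7% at mean levels of at least 2 and 51.9% at those of at least 4. Below young were 10255 of the 19941 genes well above background on both arrays. At levels from 2 to 4 the median over all genes was -0.20 against young and -0.25 against control. At 4 and over it was -0.20 and -0.31. Against control the respiratory chain median was thus near that of genes of like level, the ribosomal median smaller in size and the heat shock median larger.

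Among enzymes of glucose use, the median was -0.54, with Pfkfb3 and the glucose transporter Slc2a3 above both references, against 7.78% of all genes. Pfkfb3, which makes the activator of phosphofructokinase, was at -0.03 in young, 1.16 in control and 2.28 in aged cells, and its second probe gave 1.12 and 0.30. Slc2a3 was at -1.65 in aged cells and not well above background in the references. Nqo1, a quinone reductase of the oxidative stress response, was at 4.09, 4.47 and 2.35 (probe at chr8:109912440-109912499). Aldh3a1, an aldehyde dehydrogenase, was at 3.13, 3.05 and 4.19, with a second probe at 1.25 and 1.39. These detoxification genes, both bright, stood on opposite sides of the references, which differed from each other by at most 0.38. Hmox1, heme oxygenase, was at 0.21, 0.34 and 1.53, but its second probe gave -3.92 and -0.59. Map1lc3a, an autophagosome protein, was at 3.69, 3.91 and 1.42, and Tfeb, the transcription factor of lysosomal genes, at 1.05, 1.10 and -0.13. Dbp, an output factor of the circadian clock, was at 4.83, 4.74 and 3.54, and its second probe gave -0.69 and -1.09. The labels give no time of day.

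**Figure D3:**
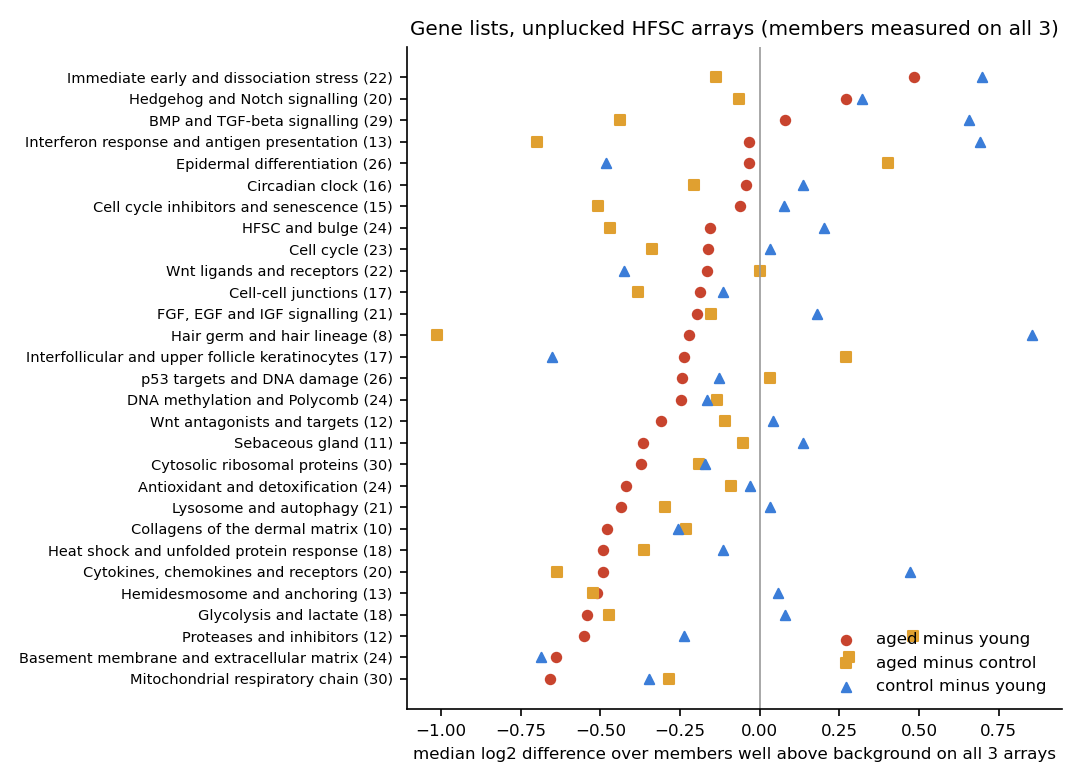
Median log2 difference of each gene list for aged minus young, aged minus control and control minus young, over the members (number in brackets) well above background on all 3 arrays, lists with at least 8 such members. Respiratory chain, hemidesmosome and glycolysis lists lie below 0 in both aged comparisons, while the basement membrane list is at -0.64 against young and 0.28 against control.

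Among junction genes, the connexin Gjb6 was at -1.61 in aged cells and not well above background in the references. Differentiation genes gave no common direction, with 4 higher and 3 lower of 29, against 14.7% and 10.1% of all genes. Their median was -0.03, from -0.06 to 0.09 under the other scalings. Sprr1a, a cornified envelope protein, was at -0.53 in young, -2.43 in control and 0.54 in aged cells. Lce1a1, of the same structure, was at 0.35 in young and 1.36 in aged cells and not well above background in control. Among markers of the upper follicle, Gata6, a factor of the duct and junctional zone, was at -1.61, -3.52 and -0.27, and Defb6, a beta-defensin of the infundibulum, at -0.37, -1.37 and 1.82. Krt6a was at 3.20, 3.57 and 1.95, and Ptn, the growth factor pleiotrophin, at 7.81, 7.65 and 6.31 (probe at chr6:36691376-36691435), with a second probe at -1.37 and -0.51. Gata6 and Defb6 were thus highest, and Krt6a and Ptn lowest, in the aged sample. Of 18 upper follicle genes, 2 were higher and 4 lower than in young cells, against 14.7% and 10.1% of all genes. Of 13 sebaceous genes, none was outside both references, against 10.8% of all genes. Among hair lineage genes, Dlx3 was at 1.94, 3.05 and 0.20 and the hair keratin Krt85 at 2.73, 2.76 and 1.66, both lowest in aged cells, although the mean over the probes of Krt85 gave a difference of 0.03. Cux1 was at -2.09 in aged and -3.60 in control cells and Prom1 at -2.29 in aged cells alone of the 3.

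**Figure D4:**
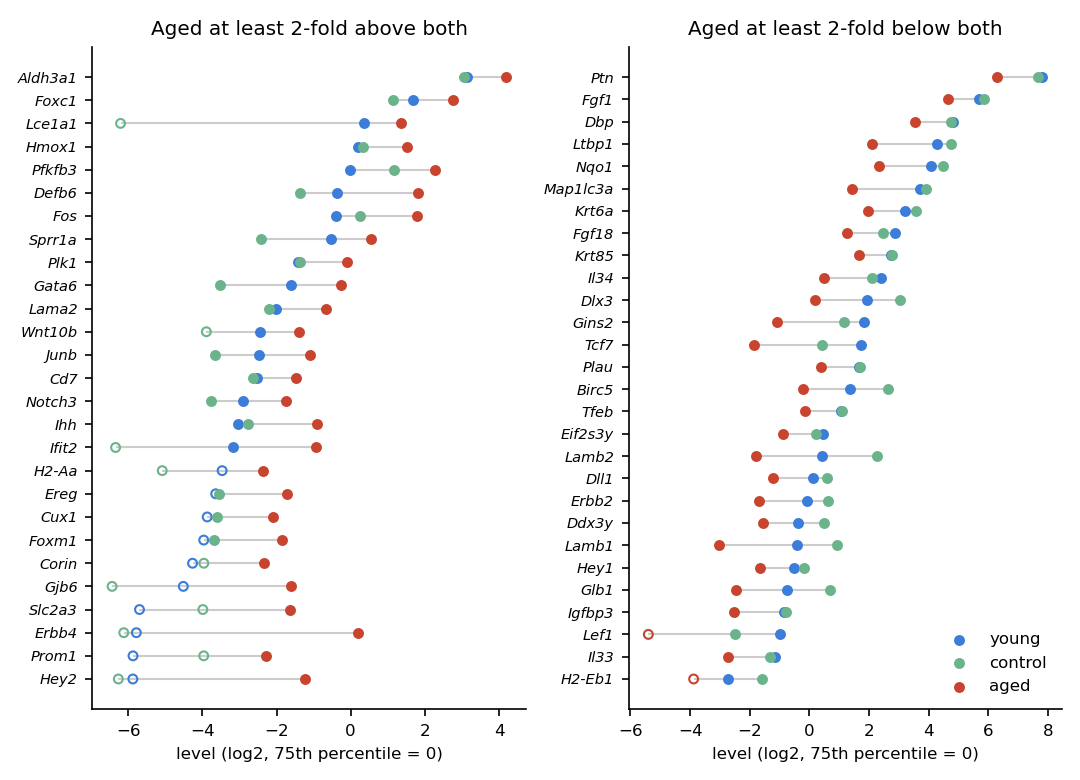
Log2 levels on the young, control and aged unplucked HFSC arrays of list members (p53 and DNA damage list not drawn) with the aged array at least 2-fold above both (left) and below both (right); open circles are not well above background. Most members on either side have aged levels under 0, and the highest aged levels are 4.19 for Aldh3a1 on the left and 6.31 for Ptn on the right.

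Markers of other cell types were detected in part on each of the 3 arrays. T cell genes had a summed level of 2.33 in young, 3.13 in control and 3.44 in aged cells and 6, 8 and 7 of 10 markers well above background. Over the 6 measured on all 3 arrays the median was 0.97 against young and 0.36 against control, and all 6 were above both references by some amount, against 29.1% of all genes. Of 7 measured, 3 were at least 2-fold above young. Cd7 was at -2.52 in young, -2.62 in control and -1.49 in aged cells, above both references. Cd3e, a chain of the T cell receptor complex, was at -1.32, -1.32 and -0.48, Cd3d was not well above background in young cells, and neither Cd2 nor Cd8a was well above background on any of the 3 arrays. Of 13 neutrophil genes, 3 were well above background in young, 6 in control and 5 in aged cells. Those other than Csf3r, at 6.87, 7.63 and 7.55, were low, and S100a9 was at -1.40 in young cells and not well above background in control or aged cells. Myeloid summed levels were 4.47, 4.08 and 4.51, with 7, 8 and 7 of 12 markers well above background. The class II antigen-presentation genes H2-Aa and H2-Eb1 stood on opposite sides: H2-Aa, not well above background in the references, was at least 1.09 and 1.73 higher in aged cells, and H2-Eb1, not well above background in aged cells, was lower by at least 1.02 and 2.15. Summed levels of fibroblast markers were 4.77, 5.37 and 4.99, with 5, 6 and 8 of 12 well above background and Corin at least 1.34 and 1.61 higher in aged cells, and those of melanocytes were 2.15, 2.59 and 2.07, with 5, 5 and 4 of 10. The endothelial receptor Tek was at 1.97 in young, -3.85 in control and not well above background in aged cells, while Kdr stood at 1.45, 1.36 and 1.65. The Y-linked Ddx3y and Eif2s3y were well above background on all 3 arrays, at 0.45, 0.21 and -0.88 for Eif2s3y and -0.38, 0.47 and -1.55 for Ddx3y. Of 5 sex-linked genes these 2 were at least 2-fold below both references, against 2.97% of all genes. Xist was well above background on the aged array alone, at -3.32. The part of sex in these values was not tested. The part of other cells in the differences was not tested.

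The widest margins outside both references belonged, with the exception of Lamb1, to genes of none of the lists. The 12 highest, ranked by the smaller of both differences, were Galr3, Olfr700, Clec2l, Alg6, Zscan20, Macrod2os2, Mis18a, Cabp4, Rad54l, Tmem74b, Rbpms and Zfp366. Their levels were from -0.75 to 2.61 in aged cells and from -3.48 to -0.55 in young cells. Galr3, a galanin receptor, was at -2.56 in young, -2.15 in control and 2.61 in aged cells, 36.1-fold and 27.0-fold higher, with its probe at chr15:78873826-78873885. Olfr700, an olfactory receptor, was at -3.00, -2.62 and 2.11. In plucked HFSCs and IFE, margins of this size were not seen for Galr3 and Olfr700. Galr3 differed by 0.80 in plucked HFSCs and -0.87 in IFE, and Olfr700 by 0.21 and 0.18. Of the 11 measured, 6 were higher in aged plucked HFSCs, 7 in aged IFE and 5 in aged total epidermis. In the same order, 1, 1 and 2 were at least 2-fold higher and 3, 0 and 0 at least 2-fold lower. Of the 3 with a second probe measured, Rbpms, an RNA-binding protein, gave 2.35 and 3.83, whereas Alg6, a glucosyltransferase of N-glycan synthesis, gave -1.46 and Mis18a, a centromere protein, -1.53 against young.

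The 12 lowest were Smim22, Ccdc84, Zfp93, Sdr16c5, Pms2, Hdac8, Lamb1, Cdc42ep2, Rps19bp1, Serpinf1, Rasl11b and Susd1. Smim22, a small membrane protein, was at 0.91 in young, 1.31 in control and -2.76 in aged cells, 12.7-fold and 16.8-fold lower. Serpinf1, the secreted factor PEDF, was at 1.45, -0.42 and -2.96, and Pms2, of mismatch repair, at -0.75, 0.71 and -3.43. With the mean of its probes Serpinf1 differed from young by -2.04. Aged levels of the 12 ran from -3.56 to -0.95, and the lowest level well above background on that array was -3.74. In plucked HFSCs, Susd1 at -2.09, Lamb1 at -1.91, Rasl11b at -1.87 and Smim22 at -1.02 were also 2-fold lower in aged cells, while Hdac8, a deacetylase, was 1.67 and Rps19bp1 1.13 higher. The second probe of Hdac8 gave -0.56 and -1.82 in unplucked cells and that of Zfp93 gave 2.18 and 1.00.

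Among genes detected in aged cells and in neither reference, the widest margins belonged to Zfp428, Daam2, Ece2, Cd209g, Vmn2r96, Apob, Mup19 and Klra2, at aged levels from 1.04 to 3.00. Zfp428, a zinc finger protein, was at 3.00 in aged cells (probe at chr7:25295712-25295771), at least 103-fold above young. Apob, the apolipoprotein of liver and gut lipoproteins, was at 1.98, at least 50.9-fold above young. These bounds hold for the main scaling. Under normexp with quantile scaling, Zfp428 differed from young by 4.52 and Apob by 3.57 log2 units. For 5 of these 8 the probe was well above background on none of the 9 arrays other than the 3 compared. Vmn2r96, Mup19 and Klra2 belong to families with near-identical copies that the probes may not tell apart. In the opposite case, detected in both references and not in aged cells, were Orai1, Oxld1, Rcor2, Peg3, Elmo2, Arhgap45, Zscan18 and Ptges3l. Orai1, a store-operated calcium channel, was at -0.36 in young and -0.64 in control, at least 10.4-fold and 8.57-fold above aged cells. Peg3, an imprinted zinc finger gene, was at -1.04 and -0.47, and was also 3.00 lower in aged plucked HFSCs.

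For other large differences between aged and young cells, the control stood on the aged side. Tpp1, a lysosomal peptidase, was at 2.18 in young, -1.16 in control and -1.83 in aged cells, and Tm9sf4 at 1.95, -1.44 and -2.09. Atp2a3, a calcium pump, was at 4.47, 1.08 and 0.71. Hinfp at 1.67, -2.27 and -2.10 and Mzf1 at 0.68, -2.94 and -2.90 differed by at most 0.18 between control and aged cells. On the higher side, Bglap3 was at -3.41, 0.49 and 0.28 and Ccdc34 at -2.43, 0.59 and 0.64. Rab2b, Akap10, Dym and Tulp2 on the higher side and Msh5 on the lower side had aged levels beyond the control by 0.68 to 1.79. All of these genes were chosen for a control on the aged side, so its place nearer the aged than the young array was fixed by the choice. With the mean of its probes Akap10 differed by 1.25 between aged and young cells.

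Probes with an alternating run of T and G took a larger share of bright genes above both references, by any size, than of other bright genes. Among the 2560 named genes with a level of at least 2 on all 3 arrays, 142 (5.55%) had a probe with a run of at least 8 such bases. Of the 366 for which aged cells were above both references by any size 58 (15.8%) had the run, against 15 (1.20%) of the 1249 below both. At least 2-fold above both were 6, of which 3 had the run, and at least 2-fold below both 28, of which 0 had it. The 25 with the largest smaller difference on each side held 10 above and 0 below. The probe stretches of 5 of these genes, each 30 of 60 bases as printed in the array files and with the run in capitals, show what the probes share.
Olfr187: atgaccaatggtcTGTGTGTGTGgctaata
Snrpa: ctcagagccGTGTGTGTGTGgttgccacac
Atg16l1: acatagcttTGTGTGTGTGTGaggaaagga
Yipf2: cgccttcctTGTGTGTGTGTGacagatctt
Il4ra: tgccagcacTGTGTGTGTGTGccacatgga
Their genes are unrelated: Olfr187 is an olfactory receptor, Snrpa a spliceosomal protein, Atg16l1 an autophagy factor, Yipf2 a Golgi protein and Il4ra a cytokine receptor. Olfr187 was at 2.76 in young, 2.70 in control and 3.94 in aged cells, and Atg16l1 at 4.28, 4.45 and 5.33. Both were also higher in aged plucked HFSCs, by 1.33 and 1.31.

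Over the array, 328 genes had a probe with this run, and 306 of them (93.3%) were well above background on all 3 arrays, against 53.8% of genes without it. The median signal of these probes was 4.71 in young, 5.21 in control and 5.49 in aged cells, against 0.30, 0.29 and 0.28 for other probes. Their median difference was 0.57 for aged minus young, with 271 of 306 higher in aged cells, and 0.09 for aged minus control. Of the 306, 155 were above both references by any size. Outside the run the median difference was -0.04 in both. Aged minus young was 0.70 over the same genes in plucked HFSCs, 0.31 in IFE and -0.04 in total epidermis. For runs of at least 10 and 12 bases, aged minus young was 0.31 and 0.16 and aged minus control -0.07 and -0.21. In plucked HFSCs aged minus young was 0.74 and 0.72 for these lengths. Of the 115 genes with at least 12 bases, 34 were above both references by any size, against 29.1% of all genes. Runs of A and C of at least 8 bases had a median of 0.12 for aged minus young and -0.48 for aged minus control. In the other pairs they were at -0.32 in plucked HFSCs and 0.52 in total epidermis. What these probes capture was not tested, and without them the counts were 3429 higher and 2404 lower than young and 1846 above and 711 below both references.

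**Figure D5:**
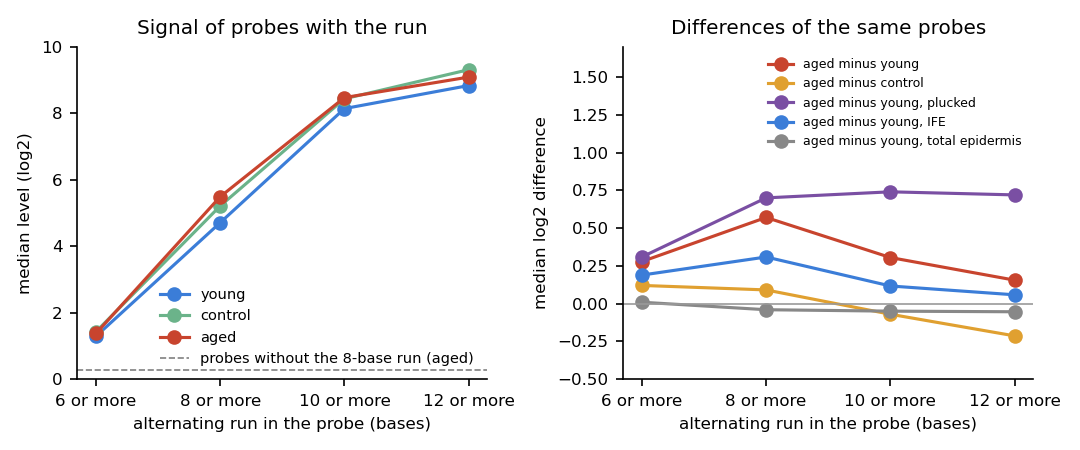
Median log2 signal on the 3 unplucked HFSC arrays (left) and median log2 difference between aged and young or control (right) for genes whose probe holds an alternating T and G run of at least 6, 8, 10 or 12 bases. Signal increases with run length on all 3 arrays, and aged minus young is 0.57 in unplucked and 0.70 in plucked HFSCs at 8 bases but -0.04 in total epidermis. At 12 bases aged minus young is 0.16 in unplucked and 0.72 in plucked HFSCs.

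Some bright genes without the run stood above both references by any size. Cxcl12, a chemokine, was at 5.34 in young, 5.48 in control and 6.23 in aged cells. Txnip, an inhibitor of thioredoxin, was at 4.21, 4.82 and 5.65. Both were also higher in aged plucked HFSCs, by 1.54 and 2.45. Adh7, an alcohol dehydrogenase, was at 2.69, 2.57 and 3.74, and differed by -0.20 in plucked cells. Zfp36, which destabilises mRNAs, was at 2.61, 2.74 and 3.55. On the lower side, Sh3rf1, a ubiquitin ligase, was at 5.21, 4.78 and 3.38, Sugp1, a splicing factor, at 5.22, 5.41 and 3.83, and Smarce1, a chromatin remodelling subunit, at 5.09, 5.32 and 3.99. In plucked cells these differed by -0.65, -0.55 and 0.15. The genes of this paragraph and of the T and G runs were chosen after their values were seen.

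Elsewhere in the series fewer genes were 2-fold apart between aged and young arrays. In plucked HFSCs it was 9.06% higher and 7.29% lower in aged cells (16.4%), in IFE 4.0% and 3.26% (7.26%) and in total epidermis 5.13% and 3.4% (8.53%), against 24.7% here. Those pairs come from other samples, and whether the same mice gave them is not known here. In each of them the young and aged arrays also lay on 1 slide in different rows. Row and age therefore cannot be told apart in any of these pairs. Of genes above both references here, 1047 were measured on both plucked arrays and 61.6% of them were higher in aged cells there, against 53.4% of all genes of this comparison. The shares were 64.7% against 51.8% in IFE and 57.3% against 53.4% in total epidermis. Of genes below both references, 57.5% were lower in aged plucked HFSCs against 46.6% of all, 58.8% against 48.2% in IFE and 50.7% against 46.6% in total epidermis.

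Probes of 1 gene often disagreed. Spot noise came from probes well above background with at least 8 spots, 258 in aged, 251 in young and 244 in control cells. Their median standard deviation within an array was 0.11, 0.09 and 0.09, far below 2-fold for these probes. The spread between arrays of a group could not be measured. Among 5561 genes with a second probe measured on both arrays, 994 were 2-fold apart by their main probe, and the second probe had the same direction in 698 (70.2%) and was also 2-fold apart in 287 (28.9%). When the main probe was not 2-fold apart, the second was in 18.2% of 4567 genes. For the 365 genes outside both references with a second probe, 259 (71.0%) had the same direction against young and 68 (18.6%) were outside both again.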

How the data were processed

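Total RNA of 1 to 10 ng was amplified with the Ovation Pico WTA System V2, labelled with Cy3 and hybridised to 1-colour Agilent arrays, per the labels' protocols. The spot intensities deposited by the authors are linear processed signals from Agilent Feature Extraction 10.7.3.1 (protocol GE1_107_Sep09), and the flags (well above background, outlier) were set by that software, per the file headers. The authors also deposited a table of log2 values, used only as an alternative. How it was made is not given in the sources used here. The scale was inferred from the values.

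Control and outlier spots were left out. Log2 intensities were scaled by subtracting the array's 75th percentile, and replicate spots were averaged. Each gene took the probe that was brightest on average over the 12 arrays, a choice among several for 11198 of 34763 names. Accessions gave a RefSeq symbol (GRCm38.p6 table) for 28026 of 55681 probes, and the other 27655 go by the array's own name. Probe positions (mm9) were read from the array files, and exon or UTR positions were not used here. A gene was called 2-fold apart when the brighter array was well above background and the log2 difference was at least 1. With 1 array a group no test was made, and array number limits the precision. The calling step was tested on simulated data.

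The members and the 39 gene lists were chosen with earlier results of these data known. Named genes were the 12 higher and 12 lower with the widest margin outside both references on all 3 arrays, 8 each with a bound, 6 each with the control on the aged side, every list member outside both references (otherwise up to 4 with the largest difference), and Col17a1, Cd34, Itga6, Ly6a and Elane. Genes chosen later are named as such. A list member and a probe sequence are not reported here. Python 3.11.15 with pandas 2.3.3 and matplotlib 3.10.9, and R 4.3.3 with limma 3.58.1 (normexp alternative only) were used. Other scalings, background filters, probe choices, folds and young references were tried.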

Additional observations from a re-analysis of the deposited data

Results flagged for a closer look

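For 18 of the genes named by the rule, the aged array was at least 2-fold on opposite sides of the young array in unplucked and in plucked HFSCs, from 1 array each. The difference between these differences was not tested. The genes were named largely for their unplucked differences, so this count does not describe genes at large. In plucked HFSCs 9.06% of all genes were 2-fold higher and 7.29% lower in aged cells. The number of named genes 2-fold apart on the same side in both is not given here. In the unplucked cells 13 of the 18 were lower in aged cells, where 14.7% of all genes were higher and 10.1% lower. Values below are aged minus young, unplucked and then plucked.

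Among signalling genes, the growth factor Fgf18 gave -1.62 and 3.15, the cytokine Il34 gave -1.90 and 1.60, and the Wnt factor Lef1 gave at most -2.75 and then 1.80. The urokinase Plau gave -1.29 and 1.38, the keratin Krt6a gave -1.24 and 1.48, and the galactosidase Glb1 gave -1.70 and 2.03. These follicle and secreted genes were lower in unplucked and higher in plucked aged cells. The neutrophil markers Camp and S100a9 gave -1.40 and 2.12, and at most -2.34 and then 1.63. Trib3, a stress-induced pseudokinase, gave at most -1.92 and then 1.40, and Rcor2, a corepressor, at most -2.85 and then 1.09.

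Hdac8, a deacetylase, gave -2.67 and 1.67, Rps19bp1 gave -2.56 and 1.13, and Hinfp, a histone gene regulator, gave -3.77 and 1.28. In the other direction, Rad54l, a recombination protein, gave 3.09 and -1.06. Tmem74b gave 2.55 and -1.14, and Zfp366 gave 2.73 and -2.09. Bglap3 gave 3.69 and -1.03, and Tulp2 gave 2.90 and -1.43.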

How the results depend on the processing

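No paired analysis was possible because each group held 1 array, all labelled replicate 1, and for the same reason no replicate could be left out. Against 3513 higher and 2408 lower than young and 1864 above and 712 below both references, normexp with quantile scaling gave 1344, 954, 592 and 217, and a 4-fold limit 809, 425, 522 and 73. Requiring a signal well above background on both arrays gave 2154 higher, with 1848 lower, and 691 above both, with 604 below. Among genes with a mean level of at least 0, chosen after seeing the data, the counts were 685, 848, 112 and 322, with fewer above than below both. The split of calls was 59.3% higher, against 48.7% when the 8 HFSC arrays were quantile scaled (2967 higher and 3123 lower) and 44.7% among the brighter genes. With control as the young reference, Ly6a was at 1.39, Bglap3 at -0.22, Hinfp at 0.18 and Mzf1 at 0.039, and with the mean of all probes Krt85 was at 0.030 and Hmox1 at -1.30, each the reverse of its sign against young, and the cause was not tested. With control as the reference the median of 14 of the 39 lists had the other sign. Without probes holding the T and G run, an alternative also chosen after seeing the data, all counts were within 1.5 times. Sizes for single genes also depended on the scaling. Under normexp with quantile scaling, Galr3 differed from young by 3.79 instead of 5.17 and Smim22 by -2.18 instead of -3.66. Levels under about -3 are close to background and limit what can be said of dim genes.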

Other observations

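Genes of either side were spread over the chromosomes. The share above both references ran from 5.47% of measured genes on chromosome 15 to 10.0% on chromosome 16 among the autosomes, and the share below both from 1.49% on chromosome 13 to 4.23% on chromosome 17. On the X chromosome 9.0% were above both.

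Runs of T and C in a probe were like those of T and G in the HFSC pairs. For probes with at least 8 such bases, 70 genes were well above background on all 3 arrays, with a median aged minus young of 0.43 and aged minus control of 0.26, and 0.65 in plucked HFSCs against -0.07 in total epidermis.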
